A study of Mus musculus with 56 samples.

Results

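The 10 genes described here are *Tbc1d4*, *Slc2a1*, *Slc2a3*, *Hk1*, *Hk2*, *Pfkp*, *Aldoa*, *Pkm*, *Ldha* and *Txnip*, which carry glucose into the cell, turn it into lactate, or hold uptake in check. They were taken by gene symbol from the 55359 genes of the RNA count table, and all 10 had enough counts to be tested. RNA was sequenced from CD8 T cells of C57BL/6 females, 8 to 12 weeks old when obtained, sorted with OVA:Kb tetramers from spleen and lymph nodes. The tetramer picks out the animals' own T cells specific for OVA, which is carried both by the donor skin and by the fathers (2W-OVA.BALB/c mice), so that the sorted cells, TFGS, share a specificity for fetus and graft. No transgene or deletion was present in the females, and one wild-type genotype was shared by all groups.

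Naive females received nothing (n = 3 samples), and Sensitized females had rejected a skin graft from the OVA-bearing donor strain (n = 4, taken at day 30 or later after grafting). N+P females were mated with OVA-bearing males with no earlier graft, and S+P females were grafted and then mated. Both were sampled from day 0 to day 3 after delivery. In N+P mice the cells were sorted into C1 (PD1-, n = 3) and C5 (PD1+CD73+, n = 3). In S+P mice they were sorted into C4 (PD1-, n = 6), C5 (PD1+CD73+, n = 6) and C7 (PD1+CD73-, n = 5). The unmated groups were not split by these markers, so pregnancy, days since the last antigen exposure and the PD1 and CD73 gates cannot be told apart in comparisons with them. The labels number up to 6 S+P replicates, more than the study counts per group, and the cells came from more than 1 experiment. Which experiment gave which sample is not in the labels, so its part in any difference was not tested. Each library held 200 cells, and fewer cells expressing a gene cannot be told apart from less RNA per cell.

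Glucose enters T cells through facilitative transporters of the GLUT family, chiefly GLUT1 (*Slc2a1*) and GLUT3 (*Slc2a3*). Once inside it is phosphorylated by a hexokinase, committed to glycolysis by phosphofructokinase, split by aldolase and carried to pyruvate, which lactate dehydrogenase can reduce to lactate. Resting T cells use this route sparingly and activated T cells turn it up. TBC1D4 (AS160) is a Rab GTPase-activating protein that holds GLUT vesicles inside the cell until AKT phosphorylates it, and TXNIP is an arrestin-family protein that promotes removal of GLUT1 from the surface and binds thioredoxin.

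The 2 regulators of uptake sit at chr14:101679135-101846739 (*Tbc1d4*, minus strand, GRCm39) and chr3:96465267-96469201 (*Txnip*, plus strand). The 100 bases that precede the outermost annotated start of each are printed 5′ to 3′ on the gene's strand, because the pattern of the 10 genes turned mainly on these 2. The *Tbc1d4* stretch is chr14:101846740-101846839 with 44% G and C, and the *Txnip* stretch is chr3:96465167-96465266 with 64%. Both lie upstream of the gene's annotated exons, and both come from the RefSeq promoter table (GRCm38.p6) matched without a mismatch to GRCm39.
Tbc1d4: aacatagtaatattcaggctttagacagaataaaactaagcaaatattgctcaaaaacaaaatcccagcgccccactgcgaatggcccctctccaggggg
Txnip: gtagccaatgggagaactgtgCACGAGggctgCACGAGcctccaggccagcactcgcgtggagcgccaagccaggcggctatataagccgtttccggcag
Capitals mark 2 copies of CACGAG with 5 bases between them, at -85 and -74 from the RefSeq start. Pairs of E-box-like motifs with this spacing are known as carbohydrate response elements, which MLX binds together with MLXIP or ChREBP. On either strand CACGAG was found in 6.47% of the 32851 promoters of 300 bases, and the pair with 5 bases between was found in 1 of them, that of *Txnip*. Only this exact string, the form that *Txnip* holds, was searched for as a pair. Pairs with other letters were not counted, so how many promoters hold a carbohydrate response element was not measured.

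The table held 56 libraries with 6636532 to 32625243 counts each (median 17299849), which gave 30 samples once technical libraries of one sample were summed, 1 library listed under 2 labels was left out, and 2 nearly identical S+P C7 libraries were counted as 1 sample. The summed CD8 T cell markers lay between 4489 and 8785 CPM, the count scaled by library size, in every sample, while *Cd4* and *Foxp3* together reached at most 4.45 CPM. Of the S+P samples 3 stood apart: C4 replicates 2 and 3 and C7 replicate 3 had counts for 7436 to 8002 genes, against 12383 to 26805 in the other 27. In S+P C7 replicate 3 the summed B cell markers stood at 8232 CPM and the red cell markers at 19871 CPM. The B cell sum was mostly *Ighm*, which averaged 1730 CPM over S+P C7, beside 0.592 CPM for *Ms4a1* and 0.00466 CPM for *Cd79a*. The main results are therefore given with and without the 3 samples. These samples also reach comparisons of other groups, through the fit that all 7 groups share. What the 3 samples hold besides TFGS was not tested.

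*Tbc1d4* was low in the cells of unmated females and in PD1- cells of N+P females, and high in PD1+CD73+ cells of both pregnant groups. It stood at 29.2, 12.4 and 2.64 CPM in the Naive samples and at 5.06, 7.94 and 11.97 CPM in the N+P C1 samples. The N+P C5 samples held 262, 187 and 305 CPM. These do not overlap with the Naive or N+P C1 samples, whose highest value was 29.2 CPM.

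A similar spread was seen after sensitization. The Sensitized samples held 5.62, 21.1, 7.37 and 16.1 CPM, and the S+P C5 samples ranged from 194 CPM through a median of 334 to 412 CPM. Every S+P C5 sample thus exceeded every Sensitized sample. The PD1- S+P C4 samples ran from 0.099 through 48.0 to 121 CPM and overlapped with the Sensitized samples, but not with S+P C5. The S+P C7 samples lay at 58.3, 85.3, 83.6, 252 and 85.1 CPM, above all Sensitized samples, and 1 of the 5 lay within the range of S+P C5.

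In edgeR's quasi-likelihood test, adjusted over 19659 genes by the Benjamini-Hochberg method, *Tbc1d4* rose in S+P C5 against Sensitized by 4.68 ± 0.97 on the log2 scale (SE), 25.6-fold (adjusted p = 0.065). It was the only one of the 10 genes past both thresholds in any comparison with all samples (adjusted p under 0.1 and a log2 fold change beyond 0.9). The call was kept without S+P C5 replicate 1 (adjusted p = 0.0767) and lost without any other single sample of the 2 groups, at an adjusted p of 0.109 to 0.319. In N+P C5 the difference from Naive was 4.09 ± 1.11 (p = 0.000879, adjusted p = 0.423), and that from N+P C1 was 4.91 ± 1.16 (adjusted p = 0.882), which passed with the replicate block (4.97 ± 0.32, adjusted p = 0.0273). Without the 3 samples of few detected genes all 3 differences passed, at 4.71 (adjusted p = 0.000539), 4.12 (adjusted p = 0.00889) and 4.92 (adjusted p = 0.00857). None of those samples belongs to the groups compared here. The fold changes stayed close, while the estimate of spread is shared by all 7 groups in the fit.

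The PD1+CD73- and PD1- cells of S+P mice had means between those extremes, at 113 ± 78.6 and 48.3 ± 43.9 CPM. S+P C7 against Sensitized gave 3.17 ± 0.90 for *Tbc1d4* (adjusted p = 0.473), and 3.27 without the 3 samples (adjusted p = 0.0296, past the thresholds). S+P C5 stood 2.73 ± 0.74 above S+P C4 (adjusted p = 0.297, and 0.14 without the 3 samples). The S+P C4 level differed from Sensitized by 1.95 ± 0.84 (adjusted p = 0.328), and S+P C7 from S+P C5 by -1.51 ± 0.75 (adjusted p = 0.414). The increase from unmated to C5 cells did not differ detectably between grafted and ungrafted females: the interaction was 0.59 with an interval of -1.87 to 3.05 (95%), and S+P C5 differed from N+P C5 by 0.36 (-1.33 to 2.04). Naive and Sensitized cells differed by -0.23 (-2.03 to 1.56).

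**Figure D1:**
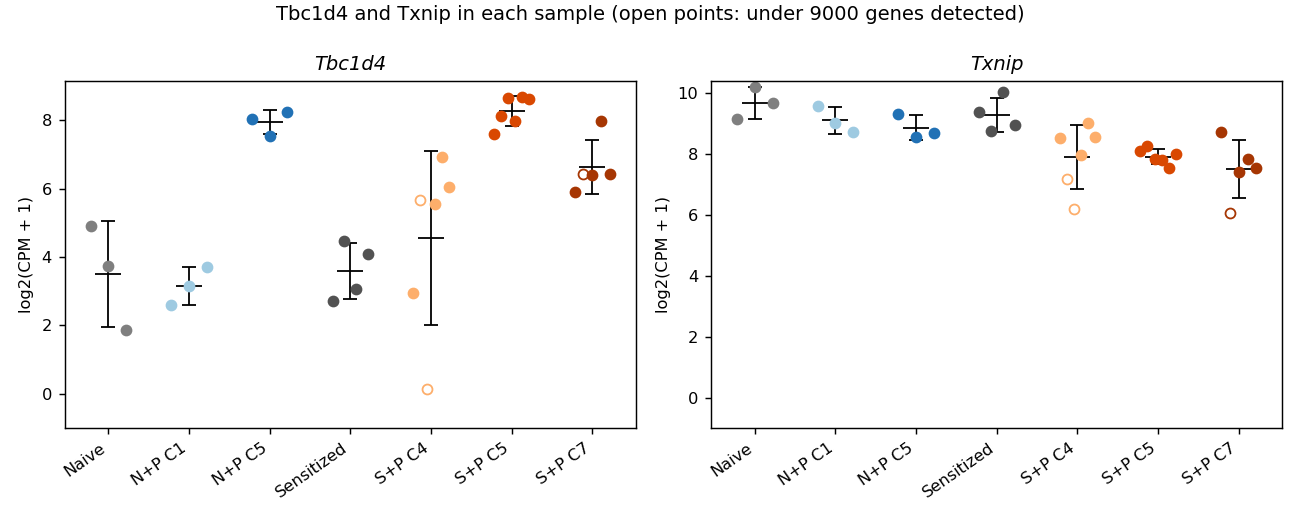
Log2(CPM + 1) of *Tbc1d4* (left) and *Txnip* (right) in each of the 30 samples by group, with bars for the mean ± SD of the log2 values and open points for the 3 samples with under 9000 genes detected. *Tbc1d4* reached 187 to 412 CPM in every C5 sample and at most 29.2 CPM in Naive, N+P C1 and Sensitized samples, while *Txnip* lay at 182 to 301 CPM in S+P C5 and at 421 to 1040 CPM in Sensitized.

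The nearest relative of TBC1D4, *Tbc1d1*, and the proteins it works with had no difference past the thresholds. *Tbc1d1* averaged 58.8 ± 34.97 CPM in S+P C5 and 56.7 ± 23.8 CPM in Sensitized cells (SD, n = 6 and 4). *Rab10*, a Rab GTPase held inactive by TBC1D4, averaged 142 ± 39.6 and 106 ± 19.1 CPM. Of the 15 relatives and partners of TBC1D4 and TXNIP (Rab GTPases, AKT and AMPK subunits, arrestin-domain proteins and thioredoxin), 14 could be tested, and 0 were under an unadjusted p of 0.05 in any comparison by edgeR. *Slc2a4*, the insulin-regulated GLUT4 that TBC1D4 retains in muscle and fat, was at 0 in most samples and reached at most 0.0467 CPM.

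Over the 30 samples the genes whose log2 CPM followed *Tbc1d4* most closely were *Eea1* (Pearson r = 0.89), *Cd200* (0.87), *Tox* (0.87), *Maf* (0.86) and *Rap1a* (0.86), given as a description of samples that share their groups, library method and run. EEA1 is an early endosome tether, CD200 an inhibitory ligand, and TOX and MAF are transcription factors. *Cd200* averaged 307 CPM in S+P C5 and 4.46 CPM in Sensitized cells, and *Tox* 394 and 43.4 CPM. Without the 3 samples the coefficients were 0.79 to 0.90 over 27 samples.

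*Txnip*, on the opposite side of glucose uptake from the transporters, was lowest in the cells of grafted and pregnant females. The Naive samples held 556, 1149 and 805 CPM. The Sensitized samples held 657, 421, 1040 and 492 CPM. S+P C5 ranged from 182 through a median of 238 to 301 CPM, below every Sensitized sample, and S+P C7 held 414, 65.3, 169, 225 and 182 CPM, also below every one of them. S+P C4 overlapped with Sensitized, from 70.9 through 304 to 514 CPM.

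The N+P samples lay closer to Naive. N+P C1 stood at 757, 516 and 415 CPM and N+P C5 at 634, 368 and 411 CPM, and both overlapped with the Naive samples. Every S+P C5 sample was below every N+P C5 sample in *Txnip*, while the other genes of the 10 overlapped there. The share of all genes that separate these groups was not computed.

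In the edgeR test *Txnip* differed by -1.44 ± 0.41 on the log2 scale between S+P C5 and Sensitized (2.71-fold lower, p = 0.00156, adjusted p = 0.276) and by -1.63 ± 0.44 between S+P C7 and Sensitized (3.09-fold lower, adjusted p = 0.473). Without the 3 samples *Txnip* fell in both, by 1.42 (adjusted p = 0.00942) and by 1.40 (adjusted p = 0.0584). The S+P C4 difference was -1.20 ± 0.41 (adjusted p = 0.316) and was -0.77 without 2 of its 6 samples. S+P C5 against N+P C5 gave -0.97 ± 0.45 (p = 0.0385, adjusted p = 0.841), and the interaction was -0.61 with a 95% interval of -1.93 to 0.72. Naive and Sensitized cells differed by an interval of -1.33 to 0.61.

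*Txnip* shares exon bases with *Gm15441* on the opposite strand, and 21.8% of its transcript has a near-identical match there. *Gm15441* was at 8.35 CPM or less in every sample. The 2 proteins that pair to bind carbohydrate response elements were expressed: *Mlxip* averaged 117 to 173 CPM and *Mlx* 49.2 to 75.8 CPM across the groups. *Mlxipl*, which encodes the liver form ChREBP, reached at most 0.448 CPM. Neither *Mlxip* nor *Mlx* was past the thresholds in any edgeR comparison.

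Closest to *Txnip* over the 30 samples were *Sh3bp5* (r = 0.85), *Gm23119* (0.81), *Bbc3* (0.80), *Gpatch4* (0.80) and *Siah1a* (0.80). *Bbc3* encodes PUMA, a promoter of apoptosis, and *Siah1a* an E3 ubiquitin ligase. *Sh3bp5* averaged 95.3 CPM in Naive, 37.4 CPM in Sensitized and 16.4 CPM in S+P C5 cells. Over the 27 samples the coefficients were 0.61 to 0.74, and *Tbc1d4* and *Txnip* themselves had r = -0.68 there and -0.19 over all 30.

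*Slc2a3* (chr6:122704768-122778599, minus strand, GRCm39), which encodes the high-affinity transporter GLUT3, was lower in S+P C5 than in Sensitized cells. The Sensitized samples held 42.5, 71.6, 59.5 and 57.2 CPM. S+P C5 ran from 8.40 through 19.8 to 29.0 CPM, below all of them. The S+P C4 samples held 126, 13.1, 0, 96.9, 73.9 and 82.6 CPM, and the 2 lowest of these are the samples with few detected genes, without which the 4 others all lay above S+P C5. S+P C7 stood at 88.1, 0.42, 55.0, 25.0 and 56.2 CPM, where the 0.42 CPM comes from the sample of few detected genes and the 25.0 CPM of another sample also lies within the range of S+P C5.

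In females without a graft *Slc2a3* stood at 26.8, 19.1 and 38.8 CPM in Naive, 20.5, 17.3 and 7.92 CPM in N+P C1, and 34.4, 29.4 and 27.9 CPM in N+P C5. All Sensitized samples were above all Naive ones, with a fitted difference of 1.03 ± 1.17 (adjusted p = 1), or 1.02 ± 0.45 without the 3 samples (p = 0.032, adjusted p = 0.472). The N+P C5 samples were all above the N+P C1 samples (1.00 ± 1.23, adjusted p = 1). N+P C5 differed from Naive by 0.11 and S+P C5 from Sensitized by -1.62, and the interaction was -1.73 ± 1.56 (adjusted p = 1), and its adjusted p was 0.521 without the 3 samples.

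By edgeR *Slc2a3* differed by -1.62 ± 0.95 between S+P C5 and Sensitized (p = 0.1, adjusted p = 0.556) and by -1.80 ± 0.89 between S+P C5 and S+P C4 (p = 0.052, adjusted p = 0.382). Without the 3 samples *Slc2a3* fell in both, by 1.59 (adjusted p = 0.0306) and by 2.33 (adjusted p = 0.0054). S+P C7 against S+P C5 gave 1.26 ± 0.91 with all samples and 1.55 without the 3 (p = 0.000241, adjusted p = 0.277), and the samples overlapped in both cases. The genes closest to *Slc2a3*, *F2r*, *Septin11*, *Tpm4*, *Rptor* and *Appl1*, had r = 0.91 to 0.92 over 30 samples but 0.48 to 0.67 over 27, so the likeness rests in part on the 3 samples.

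*Slc2a1*, which encodes the activation-induced transporter GLUT1, was more scattered. The gene (chr4:118965908-118996365, plus strand, GRCm39) shares exon bases with *Gm12868* on the opposite strand. It stood at 10.2, 22.1 and 23.1 CPM in Naive, 50.7, 22.5 and 19.6 CPM in N+P C1, and 37.3, 44.7 and 36.2 CPM in N+P C5, where all 3 samples were above all Naive samples. Sensitized samples held 69.2, 68.9, 21.9 and 36.6 CPM. S+P C5 ranged from 1.19 through 23.3 to 44.5 CPM, S+P C4 from 0 through 46.1 to 89.3 CPM, and the S+P C7 samples held 33.6, 0, 41.8, 31.7 and 41.6 CPM. These overlapped with the Sensitized samples in all 3 subsets.

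The fitted differences of *Slc2a1* were 1.41 ± 1.36 between Sensitized and Naive, 1.09 ± 1.41 for N+P C5 against Naive, and -1.12 ± 1.09 for S+P C5 against Sensitized, all with an adjusted p of 0.987 or 1 in edgeR. The 95% interval of the last was -3.25 to 1.01, which leaves its direction unresolved. Paired technical libraries of one sample differed more in this gene than in most: the median absolute log2 ratio over 23 pairs was 1.03 for *Slc2a1* and 0.73 for *Slc2a3*, against 0.41 for *Tbc1d4*, 0.39 for *Txnip* and 0.21 for *Pfkp*. Per kb of transcript, GLUT3 made up 31.3% of the GLUT1 and GLUT3 RNA in the median N+P C1 sample and 69.4% in the median S+P C4 sample, but single S+P C5 samples ran from 25.8% to 96.1%.

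**Figure D2:**
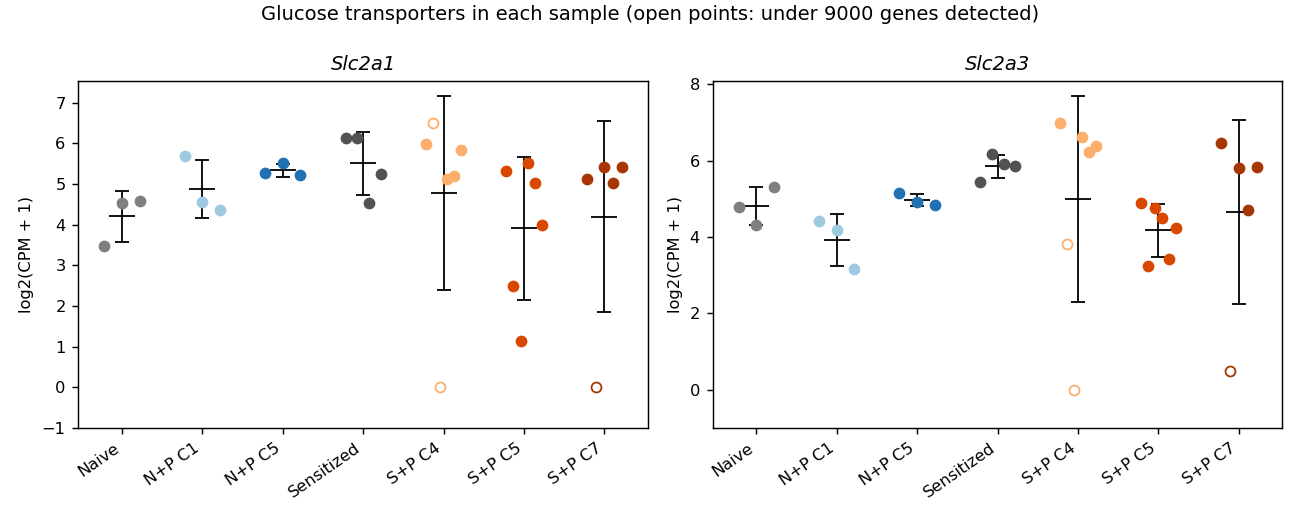
Log2(CPM + 1) of the glucose transporters *Slc2a1* (left) and *Slc2a3* (right) in each sample, drawn by group with bars for the mean ± SD of the log2 values and open points for the 3 samples with few detected genes. *Slc2a3* lay at 42.5 to 71.6 CPM in Sensitized and at 8.40 to 29.0 CPM in S+P C5, while the *Slc2a1* values overlapped between those groups.

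Of the 14 other transporters of hexoses, lactate and pyruvate, 10 could be tested and 0 passed in any edgeR comparison. The lactate and pyruvate carrier *Slc16a1* (MCT1) averaged 57.8 ± 16.6 CPM in Naive, 31.9 ± 37.3 CPM in Sensitized and 21.6 ± 14.6 CPM in S+P C5 cells (SD). *Slc16a3* (MCT4), the lactate exporter of highly glycolytic cells and the 1 gene of this list that DESeq2 called, was at 0 in all 4 Sensitized samples and averaged 1.93 CPM in Naive, 0.786 CPM in S+P C5 and 1.21 CPM in S+P C7. *Slc2a6* averaged 1.84 CPM in Sensitized cells and was at 0 in all S+P C5 samples.

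The enzymes from hexokinase to lactate dehydrogenase showed no difference past the thresholds, with or without the 3 samples. Among *Hk1*, *Hk2*, *Pfkp*, *Aldoa*, *Pkm* and *Ldha* the smallest unadjusted p in edgeR with all samples was 0.272, for *Hk1* between S+P C4 and Sensitized. Without the 3 samples it was 0.0101, for *Pfkp* in Sensitized against Naive (adjusted p = 0.428), and the next was 0.0631, for *Hk1* in S+P C7 against Sensitized (0.74 ± 0.38). In S+P C5 against Sensitized the 6 log2 fold changes lay between -0.57 and 0.95, and in S+P C7 against S+P C5 between -0.24 and 0.11. On GRCm39 *Hk1* lies at chr10:62104621-62215687, *Hk2* at chr6:82699740-82751469, *Pfkp* at chr13:6629798-6698970 and *Aldoa* at chr7:126393822-126399923, all on the minus strand. *Pkm* (chr9:59563364-59586663) and *Ldha* (chr7:46490899-46505061) are on the plus strand. The standard errors were wide with all samples and narrower without the 3: in Sensitized against Naive that of *Pkm* went from 0.87 to 0.42 on the log2 scale.

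*Hk1*, the constitutive hexokinase, averaged 56.1 ± 7.75 CPM in Naive and 34.0 ± 9.04 CPM in Sensitized cells (SD, n = 3 and 4). Its values there, 48.0, 63.5 and 57.0 against 30.3, 24.0, 45.2 and 36.6 CPM, did not overlap, with a fitted difference of -0.72 ± 0.96 (adjusted p = 1), or -0.73 ± 0.41 without the 3 samples (p = 0.0829, adjusted p = 0.494). In S+P C5 it ran from 12.6 through 48.6 to 60.5 CPM. *Hk2*, the hexokinase that activated and tumour cells induce, stayed low at group means of 2.64 to 6.99 CPM, and 3 of 23 technical pairs had it at 0 in only 1 of their 2 libraries. Per kb, *Hk1* supplied a median of 94.2% to 98.8% of the RNA of the pair in each group. *Hk1* also shares bases with *Hk1os* on the opposite strand.

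*Pfkp*, the platelet-type phosphofructokinase that also serves lymphocytes, averaged 177 ± 29.9 CPM in Naive and 309 ± 48.4 CPM in Sensitized cells. All 4 Sensitized samples (249, 350, 347 and 291 CPM) were above the 3 Naive samples (203, 185 and 145 CPM), but the fitted difference was 0.80 ± 1.26 (p = 0.529, adjusted p = 1), and 0.80 ± 0.29 without the 3 samples (p = 0.0101, adjusted p = 0.428). S+P C5 ranged from 167 through 250 to 405 CPM. The 3 samples with few detected genes had 2.24, 0.0992 and 0 CPM, far below the other 27. Part of its transcript, 42.5%, matches *Pitrm1* on the opposite strand, which stood at 0 to 86.9 CPM, and the reads of the 2 genes cannot be told apart where strand was not used in counting.

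*Aldoa*, *Pkm* and *Ldha*, the abundant enzymes of the pathway, varied together from sample to sample. *Aldoa* (aldolase) averaged 677 ± 191 CPM in Sensitized and 456 ± 223 CPM in S+P C5 cells (-0.57 ± 0.60, p = 0.35). *Pkm* (pyruvate kinase) averaged 305 ± 125 and 270 ± 151 CPM, and *Ldha* (lactate dehydrogenase A) 507 ± 53.0 and 399 ± 194 CPM. The S+P C5 and Sensitized samples overlapped in each of these genes, and the edgeR p was 0.815 for *Pkm* and 0.46 for *Ldha*. Over the 27 samples r was 0.87 for *Aldoa* and *Pkm*, 0.79 for *Pkm* and *Ldha* and 0.77 for *Aldoa* and *Ldha*, from samples that share a library method and run. With the 3 samples the last was 0.46.

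Several of these genes have near-identical matches among annotated transcripts of other genes, so their counts are less certain. A match of at least 98% identity over 150 bases covers 86.2% of the *Aldoa* transcript (*Gm57854*), 81.4% of *Pkm* (*Gm6560* and *Gm69525*) and 29.4% of *Ldha* (*Gm39011*). Of these, *Gm57854* (same strand), *Gm69525* and *Gm39011* (opposite strand) overlap the gene itself and share its exon bases. Reads there have 1 place but more than 1 gene, and how such reads were counted is not given. *Gm6560* is not among the genes that overlap *Pkm*. Reads that map to more than 1 place were removed before counting, which can lower a gene matched elsewhere. *Tbc1d4*, *Slc2a1*, *Slc2a3* and *Hk2* had no match of this length and identity.

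**Figure D3:**
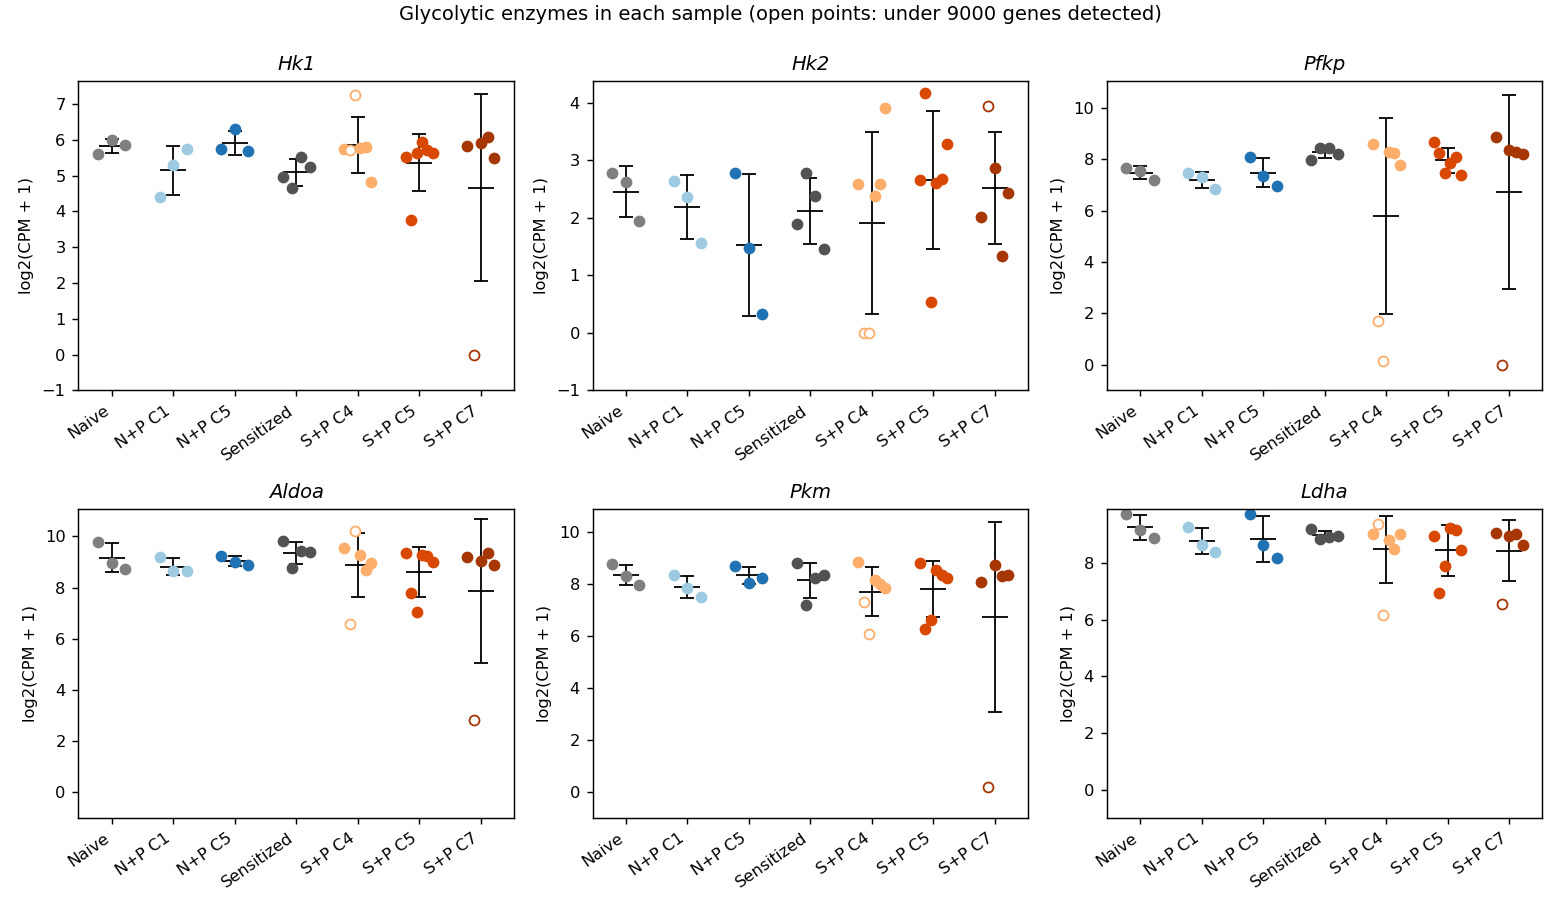
Log2(CPM + 1) of the 6 glycolytic enzymes in each sample by group, with bars for the mean ± SD of the log2 values and open points for the 3 samples with few detected genes. The groups overlapped in most panels, and the 3 open points of *Pfkp* sat at 0 to 2.24 CPM against 114 CPM or more elsewhere.

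Levels per kb of transcript, which allow the genes to be ranked against each other, spanned a wide range. *Aldoa* had a median of 345 CPM per kb over the 30 samples and *Ldha* 307, followed by *Txnip* at 130, *Pkm* at 122 and *Pfkp* at 55.5 CPM per kb. *Hk1* (11.9), *Tbc1d4* (8.37), *Slc2a1* (7.85) and *Slc2a3* (7.18) formed a lower tier, and *Hk2* was lowest at 0.604 CPM per kb. *Tbc1d4* crossed this order: its group median was 1.59 CPM per kb in Sensitized and 45.1 CPM per kb in S+P C5 cells, near *Pfkp* at 57.9 CPM per kb there.

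Of 18 other glycolytic enzymes, 15 were tested and 0 passed in edgeR, with or without the 3 samples, and the median log2 fold change was 0.17 in S+P C5 against Sensitized, beside -0.01 over all genes tested. *Gapdh* averaged 587 ± 294 CPM in S+P C5 and 457 ± 147 CPM in Sensitized cells. *Eno1*, the main enolase, averaged 497 ± 331 and 928 ± 161 CPM, and *Gpi1* 261 ± 136 and 262 ± 29.3 CPM. The list's smallest p in that comparison was that of *Eno1* (-0.90 ± 0.52, p = 0.091, adjusted p = 0.528). DESeq2 called 3 genes of the list in 1 or more comparisons, *Eno2*, *Hk3* and *Pgam2*, all of few counts. *Eno2*, for example, averaged 1.49 CPM in S+P C5, 0.812 CPM in Sensitized and 0 CPM in S+P C7 cells.

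**Figure D4:**
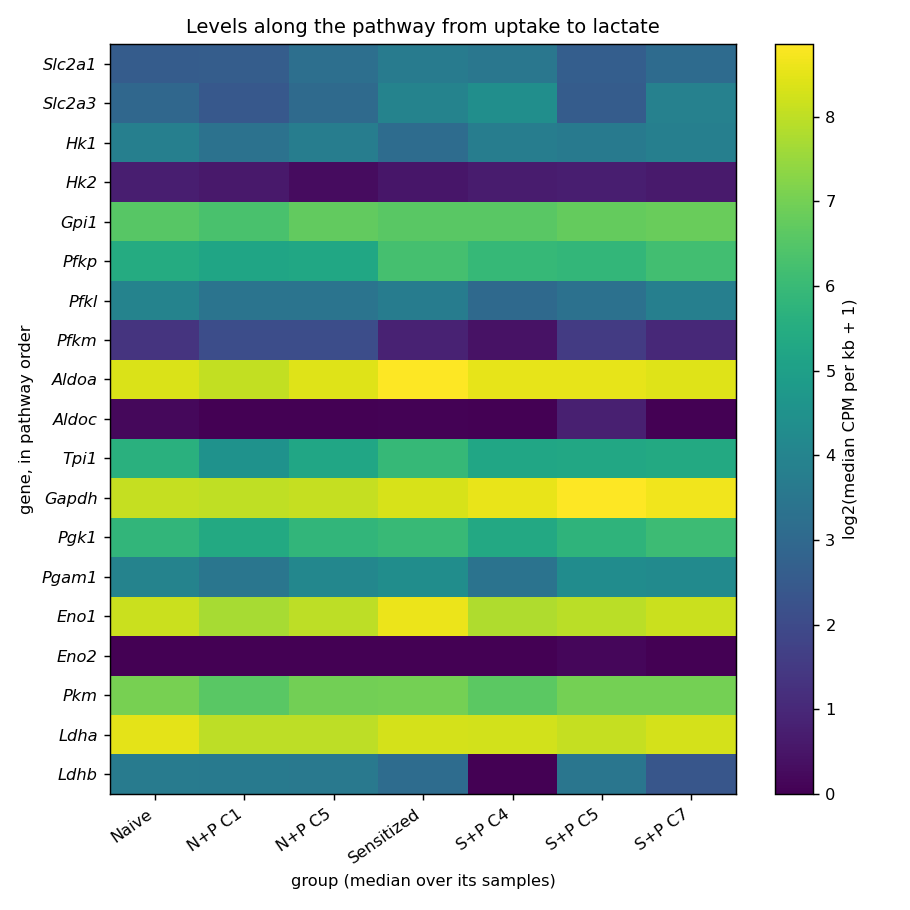
Heat map of log2(median CPM per kb + 1) for 19 genes in pathway order, from the transporters at the top to lactate dehydrogenase at the bottom, in the 7 groups. The colour of most genes was similar from group to group, with *Aldoa* at 263 to 453 CPM per kb and *Hk2* at 0.229 to 0.689.

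Among 11 regulators of glycolytic flux and pyruvate entry, 10 were tested and 0 passed in edgeR with all samples. *Pfkfb4*, a kinase and phosphatase that sets fructose 2,6-bisphosphate, was at 0 in all 4 Sensitized samples and ranged from 0 through 2.62 to 38.0 CPM in S+P C5 (p = 0.000937, adjusted p = 0.276 by edgeR). It passed without the 3 samples (adjusted p = 0.0881) and in DESeq2 (adjusted p = 2.73e-05), and the fitted fold change is no measure of size against a group at 0. Cells without a graft were not at 0: *Pfkfb4* averaged 3.77 CPM in Naive and 2.44 CPM in N+P C5. Sensitized was lower than Naive with an edgeR p of 0.00219 (adjusted p = 0.537). DESeq2 called that difference (adjusted p = 0.0044) and the interaction (adjusted p = 0.0137).

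Of 12 transcription factors and hypoxia pathway genes, 11 were tested and 0 passed in edgeR with all samples. DESeq2 on all samples called *Hif1a* (adjusted p = 0.052), *Irf4* (adjusted p = 0.0262) and *Egln3*, a prolyl hydroxylase that marks HIF for destruction (adjusted p = 3.26e-06), in S+P C5 against Sensitized. *Egln3* averaged 2.75 CPM in S+P C5, with a median of 0.0108 CPM and a highest sample of 14.6 CPM, and was at 0 in all Sensitized samples. *Hif1a*, the oxygen-regulated activator of many of these enzymes, averaged 317 ± 88.3 CPM in S+P C5 and 243 ± 14.6 CPM in N+P C5, against 61.6 ± 14.5 CPM in Sensitized and 57.7 ± 26.3 CPM in Naive cells. The difference was 2.36 ± 0.82 in S+P C5 against Sensitized (adjusted p = 0.276), and *Hif1a* rose there without the 3 samples (2.39, adjusted p = 0.00738), as it did in N+P C5 against Naive (2.09, adjusted p = 0.0989). *Irf4*, a factor induced by T cell receptor signals, averaged 76.0 ± 17.4 CPM in S+P C5 and 4.59 ± 3.04 CPM in Sensitized cells (adjusted p = 0.276, and 0.0473 without the 3 samples). *Myc*, which drives glycolytic genes in activated T cells, went the other way. It averaged 147 ± 47.5 CPM in Sensitized, 37.5 ± 16.7 CPM in S+P C5 and 22.04 ± 18.1 CPM in S+P C7, and fell without the 3 samples in S+P C7 by 2.41 (adjusted p = 0.0285) and, singled out after its values were seen, in S+P C5 by 1.95 (adjusted p = 0.0191).

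Of the members' promoters in the RefSeq table, 14 entries from 9 genes were found, with *Slc2a3* not among them. The hypoxia-element core ACGTG was present on either strand in 7 of the 14, from *Slc2a1*, *Hk1*, *Hk2*, *Aldoa*, *Pkm* and *Ldha*, and in 19.6% of all 32851 promoters. CACGTG, the E-box that MYC and USF proteins read and which contains ACGTG, was found in *Ldha* alone and in 7.15% of all promoters. *Pkm* held CACGAG as well as *Txnip*, and the promoters of *Tbc1d4* and *Pfkp* held none of these letters. A match of letters is a description of the window and was not tied to any measurement here.

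Markers of dividing cells and of other cell types were read beside these differences. The 5 cycling markers summed to 163 to 386 CPM in S+P C5, 5.87 to 196 CPM in Sensitized and 37.0 to 1409 CPM in S+P C7. The 1409 CPM is that of S+P C7 replicate 3, a sample of few detected genes, and the next highest there was 683 CPM. By edgeR 0 of 5 were called in any comparison. DESeq2 called *Mki67* (3.49, adjusted p = 0.0515) and *Top2a* (2.52, adjusted p = 0.0986) higher in S+P C7 against Sensitized. Their edgeR p there was 0.00837 and 0.0109 (adjusted p = 0.473 for both). Summed B cell markers were 671 to 1368 CPM in Naive, 211 to 373 CPM in Sensitized and 154 to 281 CPM in S+P C5. Most of these sums was *Ighm*, which averaged 939, 297 and 215 CPM in those groups. *Cd79b* averaged 22.9, 8.11 and 10.7 CPM there and *Cd79a* 0.0881, 3.48 and 0.235 CPM. Myeloid markers summed to 29.8 to 386 CPM in Sensitized, 0 to 40.5 CPM in Naive and 0 to 30.2 CPM in S+P C5. Of these *Lyz2* averaged 85.3 CPM in Sensitized, with a median of 4.65 CPM and a highest sample of 332 CPM. It was at 0 in all S+P C5 samples (p = 0.000645, adjusted p = 0.276 by edgeR, and called lower by DESeq2). *Adgre1*, of the same list, went the other way, averaging 1.36 CPM in S+P C5 and 0 CPM in Sensitized. Its edgeR p was 0.0284 (adjusted p = 0.312), and DESeq2 called it higher (adjusted p = 0.000349). *Itgax*, which activated T cells can also express, rose by edgeR in Sensitized cells, with a mean of 50.5 CPM, against Naive, where it was at 0 (adjusted p = 0.0566). NK cell markers summed to 53.3 to 126 CPM in Sensitized, at most 0.0823 CPM in Naive and 0 to 62.2 CPM in S+P C5. The part of these markers in the differences of *Txnip*, *Slc2a3* and *Tbc1d4* was not tested.

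The count of called genes among the 10 is set beside the percentage of all tested genes called by the same rule. No such percentage was computed for samples that do not overlap, so statements on overlap only describe single genes. In S+P C5 against Sensitized 1 of 10 was called, beside 0.0712% of all genes tested, and 2 of 10 had an unadjusted p under 0.05, beside 13.0%. Without the 3 samples 3 of 10 were called there (*Tbc1d4*, *Txnip* and *Slc2a3*) beside 1.02%, and DESeq2 called 2 beside 3.17%. The samples of these groups did not overlap in *Tbc1d4*, *Slc2a3* and *Txnip*.

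In S+P C7 against Sensitized 0 of 10 were called beside 0.0305%, 2 had a p under 0.05 beside 10.2%, and 2 (*Tbc1d4* and *Txnip*) were called without the 3 samples beside 0.348% and by DESeq2 beside 2.42%. In S+P C4 against Sensitized 0 were called beside 0.00509%, 2 had a p under 0.05 beside 12.7%, 0 were called without the 3 samples beside 0.0205%, and 0 by DESeq2 beside 2.97%. These 3 comparisons share the Sensitized samples, so they are not independent. Between S+P C5 and S+P C4 0 were called beside 0.0305%, and 1 had a p under 0.05 beside 13.3%. There 1 was called without the 3 samples (*Slc2a3*) beside 0.199%, and 1 by DESeq2 (*Tbc1d4*) beside 3.05%. S+P C7 against S+P C5 gave 0 called beside 0%, 0 under a p of 0.05 beside 12.7%, 0 without the 3 samples beside 0%, and 0 by DESeq2 beside 1.90%.

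For females with no graft, N+P C5 against Naive gave 0 called beside 0.0407%, 1 gene (*Tbc1d4*) under a p of 0.05 beside 5.34%, 1 called without the 3 samples beside 0.619%, and 1 by DESeq2 beside 3.06%. N+P C5 against N+P C1 gave 0 beside 0.00509%, 1 under a p of 0.05 beside 4.34%, 1 called without the 3 samples beside 0.0767%, and 1 by DESeq2 beside 2.49%, each time *Tbc1d4*. N+P C1 against Naive gave 0 by edgeR beside 0%, 0 under a p of 0.05 beside 3.25%, 0 called without the 3 samples beside 0.0972%, and 0 by DESeq2 beside 2.26%. No gene of the 10 separated Naive from N+P C1 samples without overlap.

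Sensitized against Naive gave 0 called beside 0.153%, 0 under a p of 0.05 beside 7.85%, 0 called without the 3 samples beside 0.782% and 0 by DESeq2 beside 3.32%. *Slc2a3* and *Pfkp* were higher and *Hk1* lower without overlap, for which no share over all genes was computed. S+P C5 against N+P C5 gave 0 beside 0%, 1 (*Txnip*) under a p of 0.05 beside 5.90%, 0 called without the 3 samples beside 0.0818%, and 0 by DESeq2 beside 2.21%. For the interaction, which asks whether the step from unmated to C5 cells differed with sensitization, 0 were called beside 0.0254%, 0 had a p under 0.05 beside 6.43%, 0 were called without the 3 samples beside 0.138%, and DESeq2 called 0 beside 2.50%.

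Unadjusted p values under 0.05 were more frequent among all genes once the 3 samples were left out, except in S+P C4 against Sensitized and S+P C5 against S+P C4. In S+P C5 against Sensitized there were 3 of 10 beside 17.2% of all genes, in S+P C7 against Sensitized 2 beside 11.9%, and in S+P C4 against Sensitized 2 beside 11.5%. S+P C5 against S+P C4 gave 3 (*Tbc1d4*, *Slc2a3* and *Txnip*) beside 13.0%, and S+P C7 against S+P C5 gave 2 (*Slc2a3* and *Tbc1d4*) beside 13.7%. Among ungrafted females N+P C5 gave 2 against Naive (*Tbc1d4* and *Txnip*) beside 7.74% and 2 against N+P C1 (*Tbc1d4* and *Slc2a3*) beside 5.76%, and N+P C1 gave 0 against Naive beside 4.39%. Between Sensitized and Naive there were 2 (*Pfkp* and *Slc2a3*) beside 10.5%, the C5 gate of grafted against ungrafted females gave 1 (*Txnip*) beside 7.72%, and in the interaction 2 (*Slc2a1* and *Slc2a3*) beside 8.37%.

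**Figure D5:**
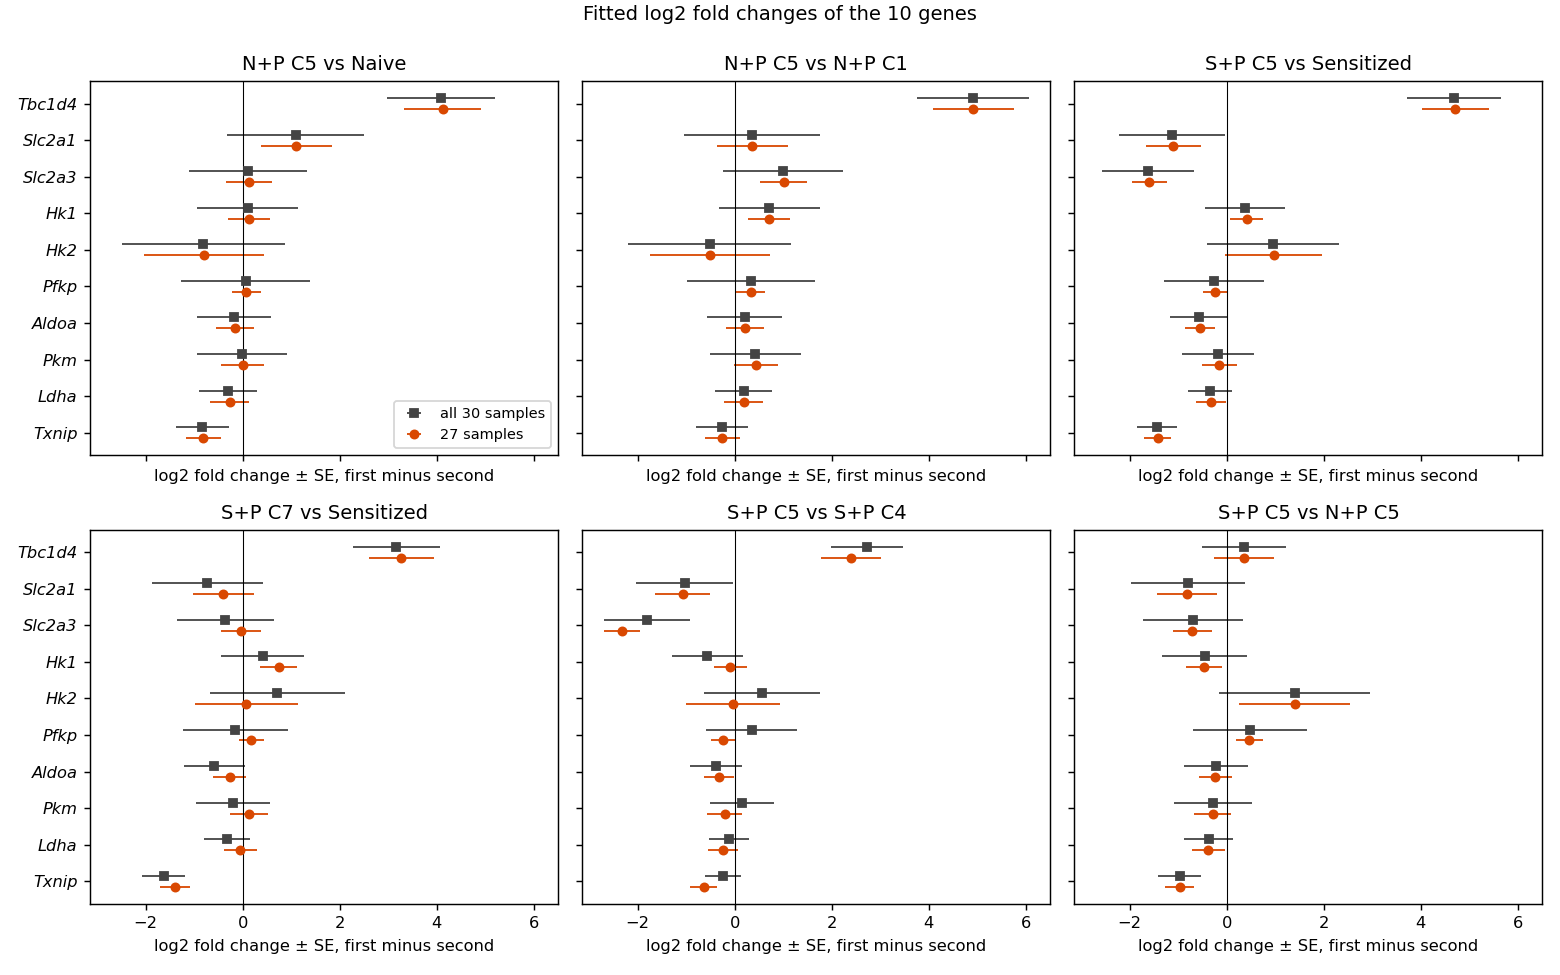
Fitted log2 fold change ± SE (first group minus second) of the 10 genes in 6 comparisons, as squares with all 30 samples and as circles with the 27 samples of more detected genes. *Tbc1d4* lay right of 0 in 5 of the 6 panels by 2.40 or more and at 0.36 in S+P C5 against N+P C5, while the 6 enzymes lay between -0.81 and 1.40 with all samples, both ends being *Hk2*.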

How the data were processed

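RNA was sequenced with SmartSeq2 from 200 sorted cells per library, in 1 run per the labels. Per the labels and methods, the authors trimmed reads with Cutadapt 3.4, aligned them to GRCm39 (mm39) with STAR 2.6.1b, removed reads without a unique position and deposited raw counts per Ensembl gene from featureCounts 2.0.1. The annotation release and strand option are not given in the sources used here. SmartSeq2 carries no molecular identifiers, so counts include amplification duplicates.

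Technical columns were summed per sample. A column with identical counts under a Naive and an S+P C4 label was left out of both, and 2 S+P C7 columns with a log2 count correlation of 0.9967 (next highest 0.9289) were averaged as 1 sample. Symbols came from GENCODE M39 (54749 of 55359 genes matched). Replicates are labelled as separate samples, and p-values measure the spread between them. Subsets of the same female were entered as separate samples in the main fit, which leaves their pairing unused. Counts were tested with edgeR 4.0.16 (R 4.3.3, TMM scaling, filterByExpr at 10 counts, all 7 groups in 1 robust quasi-likelihood model with two-sided tests) and Benjamini-Hochberg adjustment. A gene was called where its adjusted p was below 0.1 and its log2 fold change exceeded 0.9 in size, the study's thresholds. Intervals are normal 95% intervals. CPM are TMM-scaled, and CPM per kb divide by the canonical transcript. TMM left the median log2 fold change of all genes at -0.14 in S+P C4 against Sensitized and 0.11 in S+P C5 against S+P C4, against which values there should be read, and within 0.06 elsewhere. The alternatives included DESeq2 1.42.0, other filters, a replicate block and leaving out the 3 samples with under 9000 detected genes. All code was tested on simulated data.

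Same-numbered subsets of N+P or S+P females were taken as one animal from the column names. Their correlations of deviations were 0.0173 to 0.066 for N+P C5 and C1, and 0.0788 to 0.1459 for S+P C5 and C4. For S+P C7 they were 0.081 to 0.1628 with C5 and 0.0433 to 0.3134 with C4. Subsets of different numbers gave -0.0541 to -0.0065 for N+P C5 and C1, and -0.1528 to 0.1409 for S+P C5 and C4. With S+P C7 different numbers gave -0.1386 to 0.0848 for C5 and -0.2703 to 0.222 for C4. All 10 genes are named in every comparison they bear on, together with the list genes of smallest p and the 5 closest genes by correlation. Other genes given by level (such as *Tbc1d1*, *Rab10*, *Slc16a1*, *Gapdh*, *Eno1*, *Mlx* and *Mlxip*) were picked from the lists for their roles after their values were seen. The genes, lists and tests were chosen with earlier results of these data known.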

Additional observations from a re-analysis of the deposited data

Results flagged for a closer look

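Values far from the rest of their group were looked for in 40 groups of 4 to 6 samples, and chance alone marks about 1 in 20. There were 6 such values. *Tbc1d4* stood at 252 CPM in S+P C7 replicate 5, highest of 5 samples, within the range of S+P C5. *Slc2a1* was at 0 CPM in S+P C7 replicate 3 and *Aldoa* at 6.12 CPM in the same sample, which is 1 of the 3 samples with few detected genes. *Hk1* stood at 153 CPM in S+P C4 replicate 3, also 1 of the 3. *Hk1* was lowest at 12.6 CPM in S+P C5 replicate 2, and *Hk2* was highest at 14.1 CPM in S+P C4 replicate 6.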

How the results depend on the processing

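Counts of called genes stayed at 0 under all 10 alternatives for Sensitized against Naive, N+P C1 against Naive, S+P C7 against S+P C5 and the interaction. *Tbc1d4* in S+P C5 against Sensitized kept its call under all 10, at 4.31 to 4.75 (adjusted p from 1.43e-09 to 0.0963). The alternatives include DESeq2 on separate technical columns, which enters libraries of the same sample as replicates. Its p-values, which also give its counts below, therefore do not measure the spread between samples. DESeq2 on summed counts gave *Tbc1d4* an adjusted p of 5.95e-07 there. Leaving out single samples gave *Tbc1d4* 4.44 to 5.05 in that comparison (adjusted p from 0.0767 to 0.319) and a count of 0 to 1. Of these 10 fits 9 lost the call, all but the one without S+P C5 replicate 1. The count for that comparison was 2 when only the compared groups were fitted and with DESeq2 on summed counts, and 3 without the samples of few detected genes and with DESeq2 on separate technical columns. Counts rose from 0 to 1 in N+P C5 against Naive without those samples and with both forms of DESeq2, and to 1 in N+P C5 against N+P C1 in the same 3 fits, with only the compared groups and with the replicate block. With the samples of few detected genes left out, S+P C7 against Sensitized gave 2, as did both forms of DESeq2, and S+P C5 against S+P C4 gave 1 (*Slc2a3*). DESeq2 on summed counts gave 1 there (*Tbc1d4*) and on separate columns 2. DESeq2 on separate columns also gave 1 for S+P C4 against Sensitized and 1 for S+P C5 against N+P C5, each time *Txnip*. The samples of few detected genes lie in S+P C4 and S+P C7, so they act on other comparisons only through the fit shared by the groups. Other causes were not tested. The replicate block changed no other call. Equal numbers were taken as the same female only within N+P or within S+P. In all other comparisons, *Tbc1d4* in S+P C5 against Sensitized among them, the block links different females and has no meaning.

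*Tbc1d4* changed sign in differences that were near 0. Sensitized against Naive (-0.23) became 0.08 with all 56 columns and 0.60 with DESeq2 on separate columns, and leaving out single samples gave -0.73 to 0.74. It was 0.06 with the replicate block, which has no meaning there because equal numbers stand for different females. The interaction (0.59) became -0.30 with DESeq2 on separate columns and ran from -0.38 to 1.08 over single samples left out. N+P C1 against Naive ran from -1.32 to 0.15. In all 3 the opposite sign came without Naive replicate 1, whose *Tbc1d4* level of 29.2 CPM was the highest of its group, at 0.74, -0.38 and 0.15. Leaving out the samples of few detected genes narrowed the standard errors of the transporters and enzymes, as of *Pfkp* in Sensitized against Naive from 1.26 to 0.29.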
